A study of Mus musculus with 2 samples.

Results

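Feeder cells in mouse ES cell cultures are fibroblasts, and 9 of their extracellular matrix genes were followed here among the 54146 genes of the deposited tables: the fibrillar collagen genes *Col1a1*, *Col1a2* and *Col3a1*, the protease inhibitor genes *Timp2* and *Timp3*, the fibrillin gene *Fbn1*, the thrombospondin gene *Thbs1*, the tenascin gene *Tnc* and the lysyl oxidase gene *Lox*. The rows were found by their Ensembl identifiers, with the version dropped, and all 9 were in both tables. The genes were chosen by their measured levels in these cells, with earlier results known, and barcodes were selected on their collagen UMIs. A barcode was called a fibroblast when *Col1a1*, *Col1a2* and *Col3a1* together took at least 0.3% of its unique molecular identifiers (UMIs, each standing for 1 captured transcript), so the collagen level of these barcodes is a description of how they were chosen.

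The cells were E14 mouse ES cells of a wild-type clone and of a clone in which *Lin28a*, the gene of an RNA-binding protein of pluripotent cells, had been disrupted with CRISPR/Cas9. Both clones were grown on mouse embryonic fibroblast (MEF) feeder cells on gelatin in LIF/2i medium for 2 days. The wild-type cells (WT) came from clone a2.1, labelled untreated, which the paper describes as a wild-type clone that had been transfected. The knockout cells (KO) came from clone a3.5, made with a guide to the second exon, so each condition is 1 clone. Each was profiled as 1 inDrop library, in which droplets give every cell a barcode. The fibroblasts came with the culture and were not edited, so in these genes the comparison of the libraries is one of feeder cells beside WT or KO ES cells, and clone, culture and library cannot be told apart. The WT library held 12079546 UMIs over 4329 barcodes, 4295 of which had at least 50 UMIs, and the KO library 10027710 UMIs over 6060 barcodes, 5945 with at least 50. Levels are given in CPM, the UMIs of a gene per 1000000 UMIs of the same barcodes. With 1 library per condition no test was possible, and intervals at 95% are exact Poisson for levels, exact binomial (Clopper-Pearson) for shares and exact for a ratio of counts, while those of quotients of ratios use a normal approximation on the log scale, and all cover counting error only. *Lin28a* itself stood at 111 CPM (104 to 117) in the non-fibroblast cells of the WT library and at 36.8 CPM (33.0 to 40.9) in those of the KO library, but these counts come from the 3′ ends of transcripts and do not read the edited exon. Barcodes are named by running numbers in both files, so cell barcodes shared between the libraries could not be counted.

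Fibroblasts build the matrix to which cells attach. The type I collagen fibre is made of chains encoded by *Col1a1* and *Col1a2*, and type III collagen, from *Col3a1*, joins it in stretchable tissues. Lysyl oxidase, from *Lox*, crosslinks collagen and elastin outside the cell, and fibrillin-1, from *Fbn1*, forms the microfibrils on which elastin is laid down and which hold latent TGF-beta. Thrombospondin-1 and tenascin-C, from *Thbs1* and *Tnc*, are matricellular proteins that modulate adhesion and are known to be raised in wounds. TIMP2 and TIMP3 inhibit matrix metalloproteinases, the former as a soluble protein and the latter bound to the matrix.

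Promoter windows of RefSeq, from 250 bases before to 50 bases after a transcription start, were at hand for 6 of the 9 genes on build GRCm38.p6, and 4 are shown to set side by side a pair of collagen genes and a pair of inhibitor genes that differed in how they varied between fibroblasts. The windows are chr6:4505368-4505667 (plus strand) for *Col1a2*, chr1:45311288-45311587 (plus) for *Col3a1*, chr11:118355362-118355661 (minus) for *Timp2* and chr10:86300162-86300461 (plus) for *Timp3*, each written 5′ to 3′, with the TATA box (letters TATAAA) and the CCAAT box in capitals on either strand.
Col1a2: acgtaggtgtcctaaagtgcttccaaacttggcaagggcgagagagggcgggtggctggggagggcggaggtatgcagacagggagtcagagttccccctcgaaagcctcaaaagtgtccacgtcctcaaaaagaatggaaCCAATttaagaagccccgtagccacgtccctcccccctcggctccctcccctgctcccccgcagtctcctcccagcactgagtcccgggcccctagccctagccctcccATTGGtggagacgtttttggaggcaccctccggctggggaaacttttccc
Col3a1: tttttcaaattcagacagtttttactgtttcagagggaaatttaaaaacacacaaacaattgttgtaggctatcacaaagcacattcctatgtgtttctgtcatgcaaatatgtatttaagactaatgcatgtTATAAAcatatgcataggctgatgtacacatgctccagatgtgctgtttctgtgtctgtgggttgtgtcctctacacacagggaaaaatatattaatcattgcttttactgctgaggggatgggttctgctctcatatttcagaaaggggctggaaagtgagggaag
Timp2: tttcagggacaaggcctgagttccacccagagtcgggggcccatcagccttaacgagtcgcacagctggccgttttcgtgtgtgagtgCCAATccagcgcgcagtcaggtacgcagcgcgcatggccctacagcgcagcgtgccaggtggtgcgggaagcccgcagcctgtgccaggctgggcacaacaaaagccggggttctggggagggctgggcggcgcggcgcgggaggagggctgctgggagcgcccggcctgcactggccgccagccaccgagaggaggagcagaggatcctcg
Timp3: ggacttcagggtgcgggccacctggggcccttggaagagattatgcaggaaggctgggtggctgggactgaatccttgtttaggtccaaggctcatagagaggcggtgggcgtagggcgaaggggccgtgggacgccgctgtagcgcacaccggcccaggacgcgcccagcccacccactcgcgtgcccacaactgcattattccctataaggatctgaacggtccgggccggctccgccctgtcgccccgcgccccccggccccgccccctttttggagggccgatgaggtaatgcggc
The *Col1a2* window holds 2 CCAAT boxes, one of them on the other strand, and the *Timp2* window 1, while 37.4% of all 32851 promoter windows have at least 1. The *Col3a1* window holds a TATAAA, found in 13.6% of all windows, and with 37.7% G and C it lies below the median of 52.7%. *Timp3* has none of the marked motifs and 67% G and C, beside 61% in *Col1a2* and 68.7% in *Timp2*. The AP-1 site TGANTCA was in 7.81% of all windows and in none of these 4, and the GC box GGGCGG, which is not marked, was in 35.7% of all windows and in those of *Col1a2*, *Timp2* and *Timp3*. A match in letters does not show a bound site.

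At a depth of at least 500 UMIs, 49 of 1857 WT barcodes were fibroblasts, or 2.64% (1.96 to 3.47), and 27 of 1637 KO barcodes, or 1.65% (1.09 to 2.39). The remaining 1808 and 1610 barcodes are called other cells. The fibroblasts of the libraries differed in depth, with medians of 8122 UMIs in the WT and 1975 UMIs in the KO library, while the other cells had 6112 and 5054. At least 5000 UMIs were reached by 38 of the 49 WT but by 9 of the 27 KO fibroblasts. The median mitochondrial share was 1.35% and 3.83%, and 1 WT and 4 KO fibroblasts were over 20%. The part of depth and mitochondrial share in the differences between the libraries was not tested beyond the values below for fibroblasts over and under 5000 UMIs.

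The label was checked against 18 fibroblast markers, none of which is among the 9 genes. They summed to 21252 CPM in WT and 17538 CPM in KO fibroblasts against 990 and 979 CPM in other cells, and 16 of 18 and 13 of the 15 tested were at least 4-fold higher in fibroblasts, beside 10.6% and 12.0% of all genes tested by that rule. Over single fibroblasts the summed markers ran from 0 to 30810.5 CPM with a median of 21111 in the WT library, and from 0 to 30374 CPM with a median of 11139 in the KO library. The 15 ES markers, which include *Pou5f1* and *Nanog*, summed to 1107 and 1084 CPM in fibroblasts against 5656 and 5612 CPM in other cells. Of the fibroblasts, 6 WT and 3 KO barcodes carried at least 0.3% of their UMIs on ES markers, up to 7599 and 6689 CPM, and 2 of these 6 and 1 of these 3 had no fibroblast marker UMI and only 2 collagen UMIs each. No doublet caller was run, and the collagen limit let in a few barcodes that have ES markers and no fibroblast marker. Endothelial markers summed to 71.6 and 100.1 CPM in fibroblasts against 78.0 and 120.2 CPM in other cells, macrophage markers to 37.0 and 50.04 against 21.4 and 33.6 CPM, and epithelial markers to 6.93 and 16.7 against 177 and 164 CPM. Higher in fibroblasts were the smooth and skeletal muscle markers, at 1917 and 534 CPM against 18.02 and 25.2 CPM, with 2 of 3 tested at least 4-fold higher in both libraries. So were the primitive endoderm markers, at 799 and 684 CPM against 149 and 163 CPM, with 5 of 8 and 3 of 6 tested at least 4-fold higher. Cartilage and bone markers were at 71.6 and 58.4 against 4.28 and 3.79 CPM. The endoderm list holds laminin and collagen IV genes of basement membranes, and *Col4a1*, *Lamb1* and *Col4a2* gave 236, 194 and 148 CPM in WT fibroblasts. The factors *Gata4*, *Sox17* and *Foxa2* were at 0 in the fibroblasts of both libraries. Of the 12 endoderm markers only these 3 were at 0 in WT fibroblasts, so another factor, *Sox7*, had UMIs there. In KO fibroblasts 6 of the 12 were at 0. *Gata6* was at 67.0 CPM in the WT and 0 in the KO library. The genes named from that list were picked after their values were seen. The part of these markers in the results was not tested. At least 1% of UMIs on the fibroblast markers was reached by 38 of the 49 WT but only 14 of the 27 KO fibroblasts. Just inside the limit lay WT barcodes of 0.304%, 0.315% and 0.333% and KO barcodes of 0.334%, 0.481% and 0.604%, and just outside it WT barcodes of 0.266%, 0.224% and 0.196% and KO barcodes of 0.290%, 0.244% and 0.239%.

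*Col1a1* (ENSMUSG00000001506.10, chromosome 11 from 94936224 to 94953042 of GRCm38, plus strand, 51 exons in its longest transcript) was found in 48 of 49 WT and 27 of 27 KO fibroblasts. Over single barcodes it ran from 0 to 38078 CPM with a median of 11696 in the WT library, and from 3344 to 38079.5 CPM with a median of 12200.4 in the KO library. The ranges cover each other almost wholly. Summed over barcodes it reached 12496 CPM (12165 to 12833) and 12826 CPM (12193 to 13484). *Col1a2* (ENSMUSG00000029661.16, chromosome 6 from 4504814 to 4541544, plus strand), which encodes the other chain of type I collagen, stood at 4466 CPM (4269 to 4669) in the WT and 3227 CPM (2914 to 3565) in the KO fibroblasts, with a UMI in 45 of 49 and 26 of 27. *Col3a1* (ENSMUSG00000026043.18, chromosome 1 from 45311538 to 45349706, plus strand) was more uneven, with medians of 386 and 132 CPM but highest barcodes of 9122 and 7601 CPM. Its summed level was 1308 CPM (1202 to 1419.9) and 1518 CPM (1305 to 1755), from a UMI in 36 of 49 and 14 of 27 fibroblasts.

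Each collagen was also measured in barcodes chosen without it, as those with at least 0.2% of UMIs on the other 2 collagens. *Col1a1* then stood at 14116 CPM (13728 to 14511) in 36 WT and 17648 CPM (16659.6 to 18680.1) in 17 KO barcodes. *Col1a2* stood at 4459 CPM (4262 to 4662) in 49 and 2802 CPM (2532 to 3092) in 30, and *Col3a1* at 1303 CPM (1198 to 1414) in 51 and 1295 CPM (1116 to 1496) in 31. In the barcodes left over, *Col1a1* was at 51.3 and 58.8 CPM, above the 17.9 and 21.4 CPM of the cells below the limit on all 3 collagens, *Col1a2* at 3.57 and 4.02 CPM and *Col3a1* at 0.892 and 1.09 CPM. Of the barcodes chosen without *Col1a2* 44 of 49 and 27 of 30 had a *Col1a2* UMI, and of those chosen without *Col1a1* 35 of 36 and 17 of 17 had one of *Col1a1*, but of those chosen without *Col3a1* only 36 of 51 and 15 of 31 had one of *Col3a1*.

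The protease inhibitors were among the 6 genes that the limit did not use. *Timp2* (ENSMUSG00000017466.9, chromosome 11 from 118301069 to 118355740, minus strand) ran from 0 to 11952 CPM over the WT fibroblasts with a median of 2849, and from 0 to 4662 CPM with a median of 1030.2 over the KO fibroblasts. It was the most evenly found of the 6 in the WT library, with a UMI in 44 of 49 fibroblasts, against 17 of 27 in the KO library. Its summed level was 3867 CPM (3684 to 4057) in the WT and 1743 CPM (1515 to 1996) in the KO fibroblasts. *Timp3* (ENSMUSG00000020044.13, chromosome 10 from 86300372 to 86349506, plus strand) had a long tail, from 0 to 13490.4 CPM with a median of 1281 in the WT and from 0 to 6006 CPM with a median of 506 in the KO fibroblasts. The highest KO level came from 4 UMIs in a barcode of 666. The summed level of *Timp3* was 3190.4 CPM (3024 to 3363) and 967 CPM (799 to 1160.3). *Timp3* lies within *Syn3*, a neuronal gene on the opposite strand with 7 and 0 UMIs in the fibroblasts but 137 and 61 in other cells. The 2 genes have separate counts, but strand use in the counting is not given in the sources used here. Whether reads of one were counted for the other is thus not known.

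The genes of the microfibril, the matricellular proteins and the crosslinking enzyme were found in fewer fibroblasts. *Fbn1* (ENSMUSG00000027204.13, chromosome 2 from 125300594 to 125507993, minus strand) stood at 397 CPM (340.2 to 461) from 172 UMIs in 40 WT barcodes and at 125 CPM (70.0 to 206) from 15 UMIs in 8 KO barcodes. *Thbs1* (ENSMUSG00000040152.8, chromosome 2 from 118111876 to 118127133, plus strand) stood at 943 CPM (853 to 1039) in 38 WT and 717 CPM (574 to 886) in 7 KO barcodes. The highest single barcodes reached 5258 and 3741 CPM, the latter from 6 UMIs in a barcode of 1604, and the KO median was 0. *Tnc* (ENSMUSG00000028364.15, chromosome 4 from 63959785 to 64047015, minus strand) stood at 390.4 CPM (333.8 to 454) in 29 WT and 167 CPM (102 to 258) in 13 KO barcodes. Its highest barcodes were at 2051 CPM, from 26 UMIs, and 1502 CPM, from 1 UMI in a barcode of 666. *Lox* (ENSMUSG00000024529, chromosome 18, minus strand) stood at 813 CPM (730.5 to 903) in 41 WT and 567 CPM (440.4 to 719) in 8 KO barcodes. Its highest barcodes were at 4274 CPM, from 3 UMIs in a barcode of 702, and 2376 CPM, from 54 UMIs. For all 4 genes single barcodes of both libraries overlapped from 0 upwards.

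**Figure D1:**
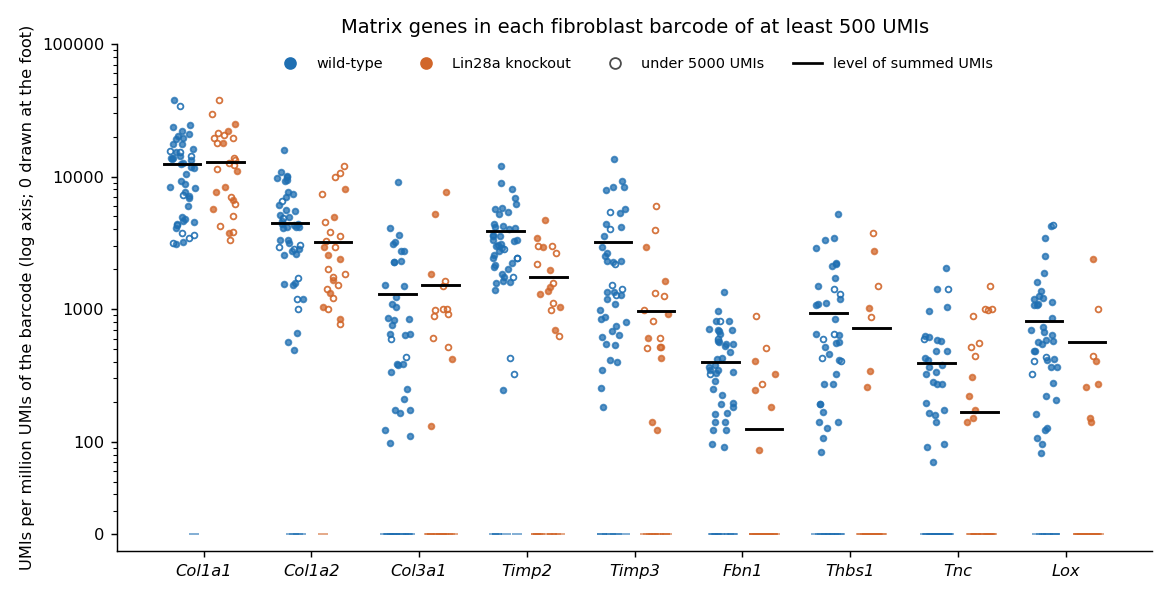
Level of each of the 9 genes in each fibroblast barcode of at least 500 UMIs, in CPM on a log axis with 0 drawn at the foot. Filled points have at least 5000 UMIs, open points fewer, and black bars are the levels of the summed UMIs; the bars for *Col1a1* are nearly level (12496 and 12826 CPM) while those for *Timp3* are not (3190.4 and 967 CPM).

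Over all fibroblasts the collagens, which set the choice of barcodes, were close between the libraries, and most of the other genes were lower in the KO library. The ratio of KO over WT was 0.962 (0.916 to 1.01) for the 3 collagens together and 0.446 (0.407 to 0.489) for the 6 other genes. Among the collagens it was 1.03 (0.969 to 1.09) for *Col1a1*, 1.16 (0.977 to 1.37) for *Col3a1* and 0.723 (0.646 to 0.806) for *Col1a2*, whose interval alone lay below 1. *Timp2* at 0.451 (0.388 to 0.521), *Timp3* at 0.303 (0.249 to 0.367), *Fbn1* at 0.315 (0.172 to 0.534) and *Tnc* at 0.427 (0.254 to 0.681) were at least 2-fold lower in the KO library. Of all 4978 genes with at least 20 UMIs in the fibroblasts of the libraries together, 13.4% were at least 2-fold lower and 6.79% at least 2-fold higher, so 4 of 9 lower and 0 higher is to be read against that background. The median ratio was 0.701 over the 9 genes and 0.984 over all. *Thbs1* at 0.761 (0.596 to 0.962) and *Lox* at 0.697 (0.530 to 0.906) were less far from 1.

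Single barcodes moved these ratios, and leaving out either of the KO barcodes named next lowered them. The KO fibroblast with the most UMIs, 22723, held 62 of the 86 *Thbs1* and 54 of the 68 *Lox* UMIs, and 37 of the 116 of *Timp3*. Without it the ratio was 0.262 (0.166 to 0.395) for *Thbs1*, 0.177 (0.0958 to 0.301) for *Lox* and 0.255 for *Timp3*. Another KO fibroblast, of 10920 UMIs, held 83 of 182 *Col3a1* UMIs, and without it the *Col3a1* ratio was 0.695 (0.555 to 0.861), on the other side of 1. Leaving out the WT fibroblast with most UMIs of the gene moved the ratios the other way. *Thbs1* was then at 0.875 (0.683 to 1.11), an interval that includes 1, and *Col3a1* at 1.31 (1.10 to 1.56), an interval above 1. *Lox* was at 0.745 (0.564 to 0.970) and *Timp3* at 0.340 (0.278 to 0.411). In fibroblasts of at least 5000 UMIs, 38 WT and 9 KO, the ratios were 0.963 (0.902 to 1.03) for *Col1a1*, 0.644 (0.565 to 0.732) for *Col1a2* and 1.33 (1.11 to 1.59) for *Col3a1*, whose interval was then above 1. *Thbs1* at 0.871 (0.673 to 1.11) and *Lox* at 0.861 (0.651 to 1.12) had intervals that include 1. In this KO set the barcode of 22723 UMIs held 62 of 77 *Thbs1* and 54 of 66 *Lox* UMIs. That of 10920 UMIs held 83 of 167 *Col3a1* UMIs. The ratios were 0.493 (0.421 to 0.576) for *Timp2*, 0.302 (0.241 to 0.374) for *Timp3*, 0.320 (0.162 to 0.573) for *Fbn1* and 0.323 (0.164 to 0.580) for *Tnc*. *Timp2* had a UMI in all of these 38 and 9 barcodes, at 246 to 11952 CPM with a median of 3278 in the WT and at 701 to 4662 CPM with a median of 1465 in the KO library, so the ranges overlapped. The fibroblasts of 500 to under 5000 UMIs, 11 WT and 18 of the 27 KO, gave another picture. There the ratio was on the other side of 1 for the 9 genes together, at 1.23 (1.08 to 1.41) where all fibroblasts gave 0.784. It was 1.44 (1.24 to 1.67) for the 3 collagens and 0.605 (0.438 to 0.836) for the 6 other genes. Among the collagens it was 1.34 (1.13 to 1.58) for *Col1a1*, 5.02 (1.17 to 45.2) for *Col3a1*, from 15 and 2 UMIs, and 1.74 (1.22 to 2.51) for *Col1a2*, which also turned. *Lox* was at 0.191 (0.0194 to 1.004), from 2 and 7 UMIs, and *Thbs1* at 0.602 (0.216 to 1.65). Of the 4 genes at least 2-fold lower over all fibroblasts, *Timp3* was at 0.446 (0.261 to 0.751), *Timp2* at 0.814 (0.452 to 1.48) and *Fbn1* at 0.669 from 3 UMIs in each library. *Tnc* turned to 2.68 (0.534 to 25.9) from 8 and 2 UMIs. *Tnc* without the WT fibroblast that held most of it was at 0.517 (0.306 to 0.831), short of 2-fold.

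Markers of muscle went with this difference. The 7 markers summed to 0 to 8282 CPM over WT fibroblasts, with a median of 322, and to 0 to 6234 CPM with a median of 0 over KO fibroblasts. These medians compare barcodes of unlike depth, 8122 and 1975 UMIs at the median. *Acta2* and *Tagln*, genes of contractile proteins that activated fibroblasts also express, stood at 1291 and 596 CPM in WT and at 309 and 225 CPM in KO fibroblasts and were picked here after their values were seen. *Des*, *Myod1* and *Myog* were at 0 in both. Of the 7 markers 3 were at 0 in WT and 5 in KO fibroblasts, so *Cnn1* and *Myh11* had UMIs in WT fibroblasts only. The KO fibroblasts held 119912 UMIs in all against 432862 in the WT, so a rare transcript is more easily missed there. The part of the muscle markers in the ratios above was not tested. In the fibroblasts with at least 1% of UMIs on the fibroblast markers, *Col1a1* was at 12592 CPM in the WT and 12608 CPM in the KO library, *Timp2* at 4041 and 1956 CPM, and *Timp3* at 3301 and 1066 CPM. The difference in *Timp2* and *Timp3* was thus also present in barcodes that pass both limits.

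**Figure D2:**
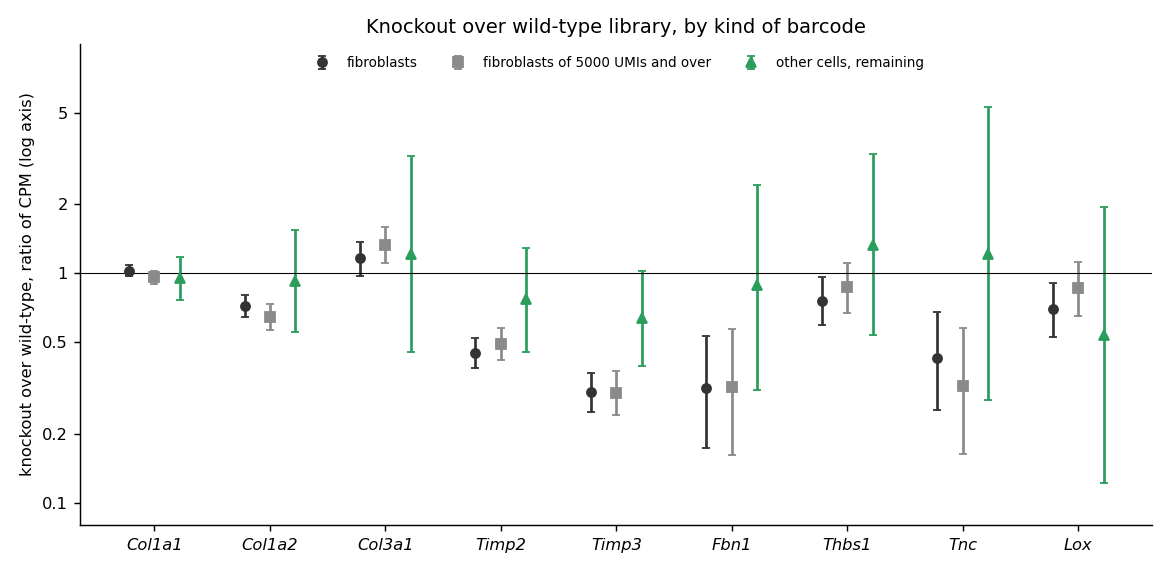
Ratio of CPM in the KO over the WT library (log axis) for each gene in all fibroblasts, in those of at least 5000 UMIs, and in the other cells that remain without marker-rich cells and without 1 KO barcode, with 95% intervals for a ratio of counts. *Timp2*, *Timp3*, *Fbn1* and *Tnc* lie under 0.5 in both sets of fibroblasts, and the intervals of all 9 genes in the remaining other cells include 1.

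The genes were tied to each other to unequal degrees in single fibroblasts. Over the 38 WT fibroblasts of at least 5000 UMIs, the variance of the level was 40.9 times that of counting error for *Timp3*, 38.7 times for *Col1a1* and 16.6 times for *Timp2*, but 1.82 times for *Fbn1*. The spread between barcodes thus exceeded counting error in all 9 genes of the WT library. The figure rises with the number of UMIs of a gene, so it does not rank the genes by relative spread. The standard deviation of the level over its mean, counting error included, was 0.592 for *Col1a1*, 0.612 for *Timp2*, 0.683 for *Fbn1* and 1.19 for *Timp3*. Over the 9 KO fibroblasts of that depth the variance over that of counting error was 51.9 for *Col1a1*, 6.79 for *Timp2*, 1.90 for *Fbn1* and 1.04 for *Tnc*. The *Tnc* value rests on 12 UMIs, too few to tell its spread from counting error. The standard deviation over the mean was 0.643 for *Col1a1* and 1.04 for *Tnc* there. Of the 36 pairs of genes 35 had a Pearson's r above 0 in the WT library, with a median of 0.336, and 28 in the KO library, with a median of 0.275. Pairs of other genes were not set beside these counts, so whether they stand out is not known. The highest r between log levels was that of *Col1a1* and *Col1a2* in the WT library, at 0.841 (Spearman's rho of 0.847), where the KO value was 0.775, and that of *Col1a1* and *Col3a1* in the KO library, at 0.874, where the WT value was 0.588. *Col1a2* and *Col3a1* had 0.552 and 0.632. *Timp2* and *Timp3*, inhibitors of one family, had r of 0.0713 in the WT and 0.249 in the KO library. *Timp3* and *Col3a1*, the one WT pair below 0, had r of -0.136 there and, on the other side of 0, 0.435 in the KO library. *Timp3* had r of 0.483 in the WT and 0.725 in the KO library with *Lox* and 0.447 and 0.598 with *Tnc*, and *Thbs1* had 0.551 and 0.725 with *Lox*. Of the 9 KO barcodes 1 held 54 of 66 *Lox*, 62 of 77 *Thbs1* and 37 of 90 *Timp3* UMIs, and KO values without it were not taken. The r values are descriptions over 38 and 9 barcodes, and the genes of a barcode share its library and its total. With that total the WT levels of *Col1a1* and *Fbn1* had r of -0.00456 and -0.0112, while *Timp3* had 0.409, and in the KO library *Lox* had 0.843. All 9 genes were found in 20 of the 49 WT fibroblasts, each of them over 5000 UMIs, and in 2 of the 27 KO fibroblasts. With every fibroblast taken at 500 UMIs, 95.1% of WT and 98.3% of KO fibroblasts would show *Col1a1*, 67.4% and 39.0% *Timp2*, and 50.1% and 26.4% *Timp3*. In other cells at 500 UMIs the shares were 1.41% and 1.51% for *Col1a1*, 0.386% and 0.594% for *Timp2* and 0.619% and 0.335% for *Timp3*.

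In the other cells, most of which are ES cells, the 9 genes were low but not at 0. They summed to 36.2 CPM (32.8 to 39.9) in the WT and 48.4 CPM (44.0 to 53.1) in the KO library, which is 0.130% and 0.221% of the level in fibroblasts. *Col1a1* had 201 UMIs in 178 of 1808 WT cells, 17.9 CPM (15.5 to 20.6), and 198 UMIs in 141 of 1610 KO cells, 21.4 CPM (18.6 to 24.6). *Timp2* stood at 5.26 CPM (4.01 to 6.79) and 5.96 CPM (4.49 to 7.75), *Timp3* at 5.44 CPM (4.16 to 6.99) and 4.66 CPM (3.37 to 6.27), and *Col1a2* at 3.39 CPM (2.40 to 4.65) and 4.76 CPM (3.46 to 6.40). The other 5 genes were between 0.446 CPM (*Tnc*) and 1.07 CPM (*Thbs1*) in the WT library. All 9 were at least 4-fold higher in fibroblasts than in other cells of the same library, where 10.6% of 16712 genes were so in the WT and 12.0% of 16164 genes in the KO library. With a minimum of 50 UMIs per gene 1025 of 12816 WT genes were so and, in the KO library, 6.51% of 12175. The collagens were used to choose these barcodes. The 6 other genes do not enter the limit but were chosen by their measured levels in these cells. The count of 9 is thus a description and no independent support. Among the 6 other genes the fold was lowest for *Fbn1* (405, 221 to 826) in the WT and for *Tnc* (36.7, 20.4 to 63.9) in the KO library. The latter rests on 1 other cell with 33 of the 42 *Tnc* UMIs. Without it the KO fold was 171 (74.3 to 426) for *Tnc* and lowest for *Fbn1*, at 144 (57.4 to 392).

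A few barcodes held much of what was counted there. In the KO library 1 barcode of 18430 UMIs, with 45 collagen UMIs or 0.244% just outside the limit, held 33 of the 42 *Tnc*, 16 of the 29 *Thbs1* and 10 of the 43 *Timp3* UMIs. Its ES markers stood at 4829 CPM and its fibroblast markers at 9495 CPM. The KO over WT ratio of the 9 genes in other cells was 1.34 (1.17 to 1.53) with this barcode. *Tnc* at 10.2 (4.04 to 33.0) and *Thbs1* at 2.93 (1.45 to 6.31) were the 2 of 9 genes at least 2-fold higher, beside 4.41% of 19205 genes, and 0 were 2-fold lower, beside 2.32%. Without the barcode of most such UMIs in each library the ratio was 1.06 (0.910 to 1.22) for the 9 genes, 2.19 (0.659 to 8.31) for *Tnc* and 1.44 (0.594 to 3.54) for *Thbs1*. A second kind of barcode had at least 1% of its UMIs on the 18 fibroblast markers but under 0.3% on the collagens. There were 7 of these in the WT library, with 18 of the 59 *Timp2* UMIs of other cells, 16 of them in 1 barcode with no collagen UMI, and 6 in the KO library, with 27 of the 55 *Timp2* UMIs, 15 of them in 1 barcode. Their ES markers summed to 542 and 244 CPM, near or under the level in fibroblasts. They are barcodes with fibroblast markers and little collagen. When both were left out, 1801 WT and 1603 KO cells remained, with the 9 genes at 33.8 CPM (30.5 to 37.4) and 30.3 CPM (26.9 to 34.1), a ratio of 0.896 (0.765 to 1.05) where it had been 1.34. *Tnc* was then at 5 UMIs in each library, 0.446 CPM (0.145 to 1.04) and 0.543 CPM (0.176 to 1.27).

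In the remaining cells the UMIs were spread thinly, with at most 3 of any gene in 1 barcode, and each gene was set against the ratio it had to the collagens in fibroblasts. Against *Col1a1*, *Col1a2* had 38 UMIs in the WT library where the ratio of the fibroblasts gives 71.1, a quotient of 0.534 (0.376 to 0.759), and *Col3a1* 10 where it gives 20.8, a quotient of 0.480 (0.253 to 0.912). The KO library had 29 against 39.3 for *Col1a2*, a quotient of 0.739 (0.489 to 1.12), and 10 against 18.5 for *Col3a1*, a quotient of 0.542 (0.281 to 1.05). Against the 3 collagens, *Timp2* came to 41 where 52.3 is the fibroblast ratio in the WT library, and to 26 where it is 19.3 in the KO library, with quotients of 0.784 (0.561 to 1.10) and 1.34 (0.872 to 2.07). *Thbs1* had quotients of 0.863 (0.468 to 1.59) and 1.51 (0.810 to 2.81), and *Lox* of 0.819 (0.417 to 1.61) and 0.636 (0.229 to 1.76). The KO values of these 2 genes rest on the fibroblast of 22723 UMIs, without which they were 4.98 (2.45 to 10.1) and 2.85 (0.929 to 8.74). *Timp3* had 55 UMIs where 43.1 is the fibroblast ratio and 29 where it is 10.7, quotients of 1.28 (0.947 to 1.72) and 2.70 (1.75 to 4.16). *Fbn1* was above the fibroblast ratio in both libraries, with 11 UMIs against 5.37 and 8 against 1.39, quotients of 2.05 (1.10 to 3.82) and 5.76 (2.41 to 13.8). *Tnc*, at 5 UMIs in each, had quotients of 0.947 (0.386 to 2.33) and 2.70, the latter with an interval from just above 1 to 7.28. The limit chose fibroblasts for a high and these cells for a low collagen share, which by itself raises the ratio of another gene to the collagens here, so quotients above 1 are given as values only. They also depend on which fibroblasts are the base, most of whose UMIs come from barcodes of at least 5000 UMIs. Against the 11 WT fibroblasts of 500 to under 5000 UMIs, the quotient was 0.904 (0.563 to 1.45) for *Col1a2* and, on the other side of 1, 5.35 (1.16 to 24.7) for *Col3a1*, from 2 fibroblast UMIs, and 1.88 (1.09 to 3.22) for *Timp2*. Against the 18 such KO fibroblasts *Col1a2* was at 0.677 (0.433 to 1.06), *Timp2* at 2.66 (1.52 to 4.64) and *Col3a1*, also turned, at 1.82 (0.801 to 4.14). Free RNA and expression in the cells themselves cannot be told apart for counts this low.

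**Figure D3:**
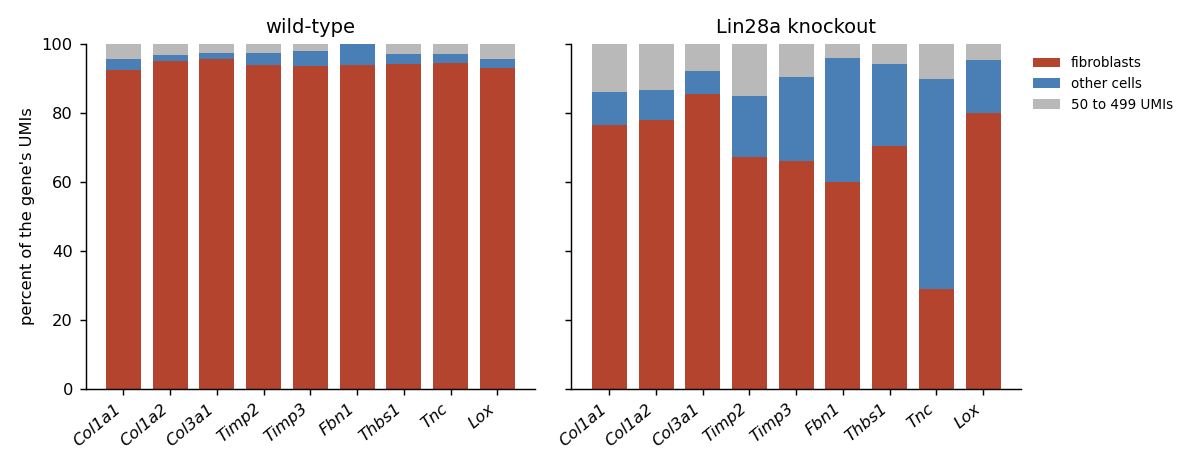
Share of the UMIs of each gene, over barcodes of at least 50 UMIs, that lay in fibroblasts and in other cells (both of at least 500 UMIs) and in barcodes of 50 to under 500 UMIs. Fibroblasts held 93.4% of the UMIs of the 9 genes in the WT and 74.6% in the KO library, where *Tnc* was at 29.0%, or 55.6% without 1 barcode that held 33 of its UMIs just outside the limit.

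Counted over all barcodes of at least 50 UMIs, the 9 genes had 12913 UMIs in the WT and 3512 in the KO library, 1069 CPM against 350.4 CPM, a ratio of 0.328 (0.316 to 0.340). This is lower than the 0.784 (0.752 to 0.818) among fibroblasts, and the library sum also counts how many fibroblasts there were and how deep they were. The fibroblasts of at least 500 UMIs held 432862 UMIs of the WT and 119912 of the KO library. The 2438 WT and 4308 KO barcodes of 50 to under 500 UMIs held 443 and 444 UMIs of the 9 genes, 3.43% and 12.6% of those in the library.

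These shallow barcodes were set against all barcodes of at least 500 UMIs, fibroblasts included in both. The collagens stood at 749 CPM (671 to 835) in shallow and 701 CPM (686 to 716) in deeper WT barcodes, whose intervals overlap, and at 540.1 CPM (486 to 599) and 253 CPM (243 to 263) in the KO library, where the shallow barcodes were higher. The 6 other genes were lower in shallow WT barcodes, at 263 CPM (217 to 315) against 371 CPM (359.5 to 382), and higher in shallow KO barcodes, at 124 CPM (98.9 to 154) against 75.4 CPM (69.9 to 81.1). ES markers stood at 4069 and 4313 CPM there, under the 5656 and 5612 CPM of other cells of at least 500 UMIs. A collagen share of 0.3% was reached by 7.79% of shallow WT and 4.62% of KO barcodes, but in 123 and 150 barcodes by 1 collagen UMI, which is enough up to 333 UMIs. The 6 other genes, which do not enter the limit, stood at 1158 CPM (823 to 1583) and 1319.7 CPM (959 to 1772) in these barcodes, between the 9601 and 4286 CPM of the deeper fibroblasts and the 188 CPM (148 to 235) and 61.4 CPM (43.7 to 83.9) of the shallow barcodes under the limit. *Fbn1* had 0 UMIs in the 437650 UMIs of the shallow WT barcodes, a level of at most 8.43 CPM by the exact interval, and the fibroblast ratio to the collagens gives 7.13 UMIs.

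By depth class, the collagens in all barcodes did not fall steadily with depth. In the WT library they stood at 905 CPM (644 to 1238) in barcodes of 50 to under 100 UMIs, 985 CPM (838 to 1151) at 100 to under 200, 557 CPM (466 to 662) at 200 to under 500 and 318 CPM (218 to 449) at 500 to under 1000, and in the KO library at 322 CPM (219 to 458), 461 CPM (387 to 544), 704 CPM (608 to 811) and 257 CPM (194 to 333). From 1000 to under 2000 UMIs they stood at 665 CPM (509 to 854) in the WT and at 1276 CPM (1147 to 1415), the highest KO class, from 2000 to under 5000 at 143 CPM (125 to 162), the lowest WT class, and 224 CPM (196 to 255), and from 5000 at 797 CPM (779 to 815) and 219 CPM (209 to 230). Most collagen UMIs of these deeper classes lay in a few fibroblasts. At 1000 to under 2000 UMIs 2 WT fibroblasts held 52 of 61 and 9 KO fibroblasts 338 of 359. From 5000 UMIs 38 WT fibroblasts held 7648 of 7833 and 9 KO fibroblasts 1549 of 1722. The levels thus follow where the fibroblasts fell, and the intervals leave out the spread between them. Other WT cells, which the limit leaves, held 0.134 (0.0806 to 0.209) collagen UMIs per barcode from 500 UMIs, 0.136 (0.0624 to 0.259) from 1000, 0.0891 (0.0624 to 0.123) from 2000 to under 5000 and 0.155 (0.133 to 0.179) at 5000 and over. Over these last 4 classes the collagen level went from 195 to 19.7 CPM while the number per barcode stayed within overlapping intervals, apart from the last pair. Other KO cells held 0.0571 (0.0339 to 0.0903), 0.106 (0.0657 to 0.162), 0.154 (0.112 to 0.207) and 0.213 (0.182 to 0.247) in the same classes, as the level went from 82.4 to 22.3 CPM. Without the barcode of 18430 UMIs the last value was 0.158 (0.132 to 0.188), close to that of the class before it. The limit itself removes barcodes with few UMIs and 2 or more collagen UMIs, so the lowest of these classes is trimmed more than the highest.

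**Figure D4:**
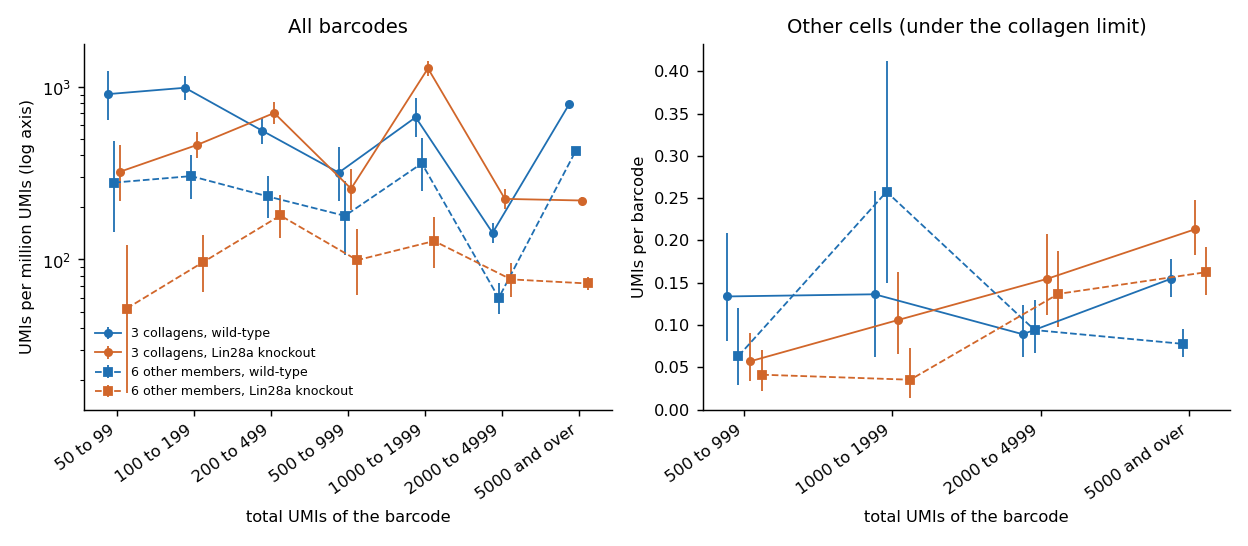
Left, level in CPM (log axis) of the 3 collagens and of the 6 other genes over all barcodes of each depth class, and right, their UMIs per barcode in other cells from 500 UMIs up, with exact Poisson intervals at 95%. Collagen UMIs per other cell lie between 0.0571 and 0.213 in the classes on the right of both libraries, the latter with the KO barcode of 18430 UMIs. The collagen level of these other cells goes from 195 to 19.7 CPM in the WT and from 82.4 to 22.3 CPM in the KO library. On the left, with fibroblasts included and shallower classes added, the collagen level spans 143 to 1276 CPM.

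Genes of the same machinery, taken from lists and counted by the same rule, were mostly higher in fibroblasts too. All 9 tested genes of the other fibrillar and associated collagens were at least 4-fold higher in WT fibroblasts and all 7 tested in the KO library, beside 10.6% and 12.0% of all genes, with *Col5a1*, of a collagen that starts fibrils, at 809 and 484 CPM. Of matrix glycoproteins and proteoglycans 18 of 22 and 15 of 18 were, led by *Sparc*, a collagen-binding protein, at 8104 and 7097 CPM, and *Fbln2*, a fibulin, at 2114 and 1959.8 CPM. Of the genes that fold and secrete collagen 8 of 17 and 11 of 17 were, among them *Serpinh1*, the collagen chaperone HSP47, at 1984 and 1334 CPM against 94.0 and 62.2 CPM in other cells, whereas *P4hb*, which every cell uses, was 2.94-fold and 2.19-fold higher. The relatives of *Lox* gave 3 of 3 in both, with *Loxl2* at 767 and 350.3 CPM. Metalloproteinases and their inhibitors gave 10 of 12 and 7 of 11, matrix receptors 8 of 11 in both, and TGF-beta and CCN genes 4 of 9 and 5 of 8. Medians of the fold were 268, 38.4, 3.84, 32.3, 27.7, 11.5 and 2.35 for these 7 lists in the WT library, beside 0.998 for all genes, and 152, 31.4, 4.71, 11.4, 8.22, 10.4 and 5.48 in the KO library, beside 1.18. *Timp1*, an inhibitor gene that is not among the 9 genes, stood at 568 CPM (499.5 to 644) in WT and 667 CPM (529 to 830.3) in KO fibroblasts. Its ratio was 1.17 (0.901 to 1.52), beside 0.451 for *Timp2* and 0.303 for *Timp3*.

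The genes whose pattern over barcodes of at least 500 UMIs was most like that of the 9 genes summed were *Ccdc80*, *Fbln2* and *Nfix* in the WT library, with Pearson's r of 0.747, 0.729 and 0.714 over 1857 barcodes among 12816 genes. In the KO library they were *Fbln2*, *Ccdc80* and *Gsn*, with 0.651, 0.550 and 0.519 over 1637 barcodes among 12175 genes. *Fbln2*, *Ccdc80*, *Nfix*, *Gsn*, *S100a6* and *Cd44*, the hyaluronan receptor, were among the first 10 in both libraries. The 9 genes themselves had r between 0.571 (*Tnc*) and 0.784 (*Col1a2*) with the sum of the other 8 in the WT library, and between 0.325 (*Lox*) and 0.698 (*Col1a2*) in the KO library. There 7 of the 9 were below the 0.651 of *Fbln2*.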

How the data were processed

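The authors turned the inDrop reads into digital expression matrices with a published pipeline. The deposited values are whole UMI counts, not normalized, with shallow barcodes kept. The submitters' processing notes name build mm10 and Seurat 2.3.4, and the aligner and the strand setting are not given in the sources used here. GENCODE M21 names 54079 of the 54146 identifiers, *Lox* across a change of version. UMIs that the files count as ambiguous numbered 0 for the 9 genes. The genes, lists and markers were chosen with earlier results of these data known. Counts were summed over barcodes and scaled to their total. Folds over all genes used 0.5 added to each count, genes with at least 20 UMIs in the pools compared, and limits of 4-fold between kinds of barcode and 2-fold between libraries, and were checked on simulated pools. Intervals of a ratio are exact for 2 Poisson counts, and those of a quotient of ratios use the log-normal approximation. Named besides the 9 genes were the 3 listed genes of highest fibroblast level per list, or fewer, and those most like the summed genes, each with exceptions said in place. Alternatives were other collagen limits, depth minimums, scalings and choices of barcode, and leaving out marker-rich cells was chosen after seeing the data. The work used Python 3.11.15 with numpy 2.4.6, scipy 1.17.1, matplotlib 3.10.9 and pandas 2.3.3.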

Additional observations from a re-analysis of the deposited data

How the results depend on the processing

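No paired analysis was possible because each condition is 1 library and no test was run. Of the alternative values for the main results, 59 moved by less than the counting interval, or by less than 1.5 times for counts, 38 moved by more and 6 turned to the other side of 1. With a collagen limit of 0.2% of UMIs the summed level of the 9 genes was 19139 CPM in knockout fibroblasts and 34.7 CPM in the other knockout cells (0.182% of the former), and the knockout over wild-type ratio was 0.689 in fibroblasts and 0.968, on the other side of 1, in other cells. At 0.5% the wild-type levels were 28975 and 57.2 CPM (0.198%), the knockout fibroblasts were at 22733 CPM and the ratio in other cells turned to 0.922. At 1% 32 wild-type fibroblasts were left, the wild-type levels were 33285 and 159 CPM (0.479%), the knockout levels 27312 and 108 CPM (0.395%), and the ratios 0.821 in fibroblasts and, turned, 0.677 in other cells. With barcodes from 50 UMIs up there were 239 wild-type and 226 knockout fibroblasts, with wild-type levels of 26599.8 and 43.3 CPM (0.163%), 19647 CPM in knockout fibroblasts (other cells at 0.258% of it) and a ratio of 0.739 in fibroblasts. With other cells held under 0.1% collagen, the knockout level was 30.7 CPM (0.140%) and the ratio turned to 0.913. Fibroblasts chosen by other fibroblast markers gave 34599.9 and 28879.5 CPM. A mean over barcodes gave 25058 CPM in wild-type fibroblasts and a ratio of 0.843, and scaling by the median of ratios a ratio of 0.685. Chosen after seeing the data, leaving out the other barcode with most UMIs of the 9 genes gave 36.6 CPM in the other knockout cells (0.167%) and a ratio of 1.06; leaving out marker-rich cells as well gave 30.3 CPM and, turned, 0.896; and leaving out 1 knockout fibroblast gave a ratio of 0.720 in fibroblasts. In fibroblasts of 500 to under 5000 UMIs, also chosen after seeing the data, the ratio turned to 1.23 for the 9 genes, 1.74 for *Col1a2* and 2.68 for *Tnc*. For the 9 genes together the direction of the ratio thus changed with several settings in other cells. In fibroblasts it changed only in those of 500 to under 5000 UMIs and stayed below 1 in the other settings given. A minimum of 50 UMIs per gene left 1025 wild-type and 792 knockout genes at least 4-fold higher in fibroblasts, with fewer genes tested. The levels of *Fbn1* and *Tnc* in knockout fibroblasts rest on few UMIs, 15 and 20. The cause of these changes was not tested.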
